A study of Mus musculus with 6 samples.

Results

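The 9 genes described here encode inhibitors of cytokine signaling, namely Cish, Socs1, Socs2, Socs3, Socs5, Socs6, Socs7, Pias1 and Pias3. They were chosen by name, as every probe set of the array annotated with exactly 1 of these symbols, which gave 26 probe sets of the 45037 tested and 9 genes of 18193 with a probe set of their own. RNA had been taken from mammary epithelial organoids, the pieces of duct and alveolus that remain after the fat pad is digested, of 3 WT and 3 BK5 Wwox KO mice, and each mouse had its own Affymetrix mouse genome array. All 6 mice were 8 weeks old, of mixed 129/J and C57BL/6 background, and carried the floxed Wwox alleles (WWOX flox/flox). The mice of arrays KO5, KO6 and KO7 also carried Cre under the bovine keratin 5 promoter (BK5-cre +), which is switched on before birth in epithelial precursors, and those of WT1, WT2 and WT3 did not (BK5-cre -). The presence of Cre and the deletion of Wwox cannot be told apart in this design. Values are log2 RMA values as deposited, and a change is the KO mean minus the WT mean on that scale.

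Cytokines and hormones such as prolactin bind receptors that carry Janus kinases (JAK), and these phosphorylate the STAT transcription factors, which enter the nucleus and switch genes on. Among the genes switched on are those of CIS and the SOCS proteins, which bind receptors or kinases through an SH2 domain, recruit a ubiquitin ligase through their C-terminal SOCS box, and so close a feedback loop. PIAS proteins act later, on activated STATs in the nucleus, and are also SUMO ligases. In the mammary gland prolactin and Stat5 drive the growth of alveoli, with Socs1 and Socs2 as brakes, while Socs3 restrains Stat3.

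Wwox, the deleted gene, was at 7.77, 7.63 and 7.72 in WT and 6.23, 5.87 and 5.96 in KO on its brightest probe set (of each gene, the one whose mean across all arrays was highest). The difference was -1.69 (standard error 0.13, adjusted p = 0.0228). Markers of luminal cells, 9 measured, and of basal cells, 10 measured, all lay above the median probe set of the array, and their means overlapped between the groups. In the lists of other cell types the array means were apart between the groups for endothelial markers only. The mean of 10 endothelial markers was 8.86 to 9.41 in WT and 9.60 to 10.06 in KO, with all 10 higher in KO and 3 called, and the mean of 18 markers of macrophages, dendritic cells and lymphocytes was 6.52 to 7.93 in WT and 6.28 to 7.16 in KO, with all 18 lower and 0 of them called. The mean of 10 fibroblast markers overlapped, at 10.39 to 10.74 in WT and 10.33 to 11.11 in KO, with 7 markers higher in KO and 3 lower. Of these 1, the collagen gene Col1a1, was called higher (1.43, adjusted p = 0.0492), and the collagen genes Col1a2 (0.84) and Col3a1 (0.56) had KO above WT. The lower markers were Thy1 (-0.53), Fap (-0.32) and Pdgfra (-0.18), with the groups overlapping on each. The mean of 8 adipocyte markers overlapped as well, with 4 higher and 4 lower in KO and 0 called. The part of these cell types in the values below was not tested. RNA quality also differed. The mean 3' minus 5' difference of the Gapdh and β-actin control probe sets, which grows as RNA degrades, was 0.96 on WT1, 2.13 on WT2 and 1.80 on WT3 against 0.54 to 0.60 on the KO arrays (exact permutation test, two-sided, p = 0.1, the smallest that this design allows).

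No probe set of the inhibitor genes met the limits of a call in KO organoids. A call needed an unadjusted p under 0.01 in limma together with a change of 2-fold or more, and 0 of 26 probe sets passed, where 1.99% of all probe sets did. The changes ran from -0.77, on a Pias1 probe set, to 0.50, on that of Socs1, with a median of -0.08 against -0.03 over all probe sets. For 22 of the 26 (84.6%, against 87.3% of all probe sets) the 95% confidence interval lay wholly inside 2-fold in either direction. Below that size, 7 of the 26 probe sets had an unadjusted p under 0.05 by limma (26.9%, against 19.3% of all probe sets). Of these 5 were lower in KO, those of Cish and 1 each of Socs5, Socs6, Socs7 and Pias1. That is 19.2% of the members, where 9.74% of all probe sets were lower at that limit. Only 2 were higher, 1 each of Socs2 and Pias3, or 7.69%, where 9.54% of all probe sets were. Both of these were dim, with a mean log2 value under 6. On the brightest probe set of each gene, 2 of 9 members were lower (22.2%, against 13% of all genes) and 0 higher (against 6.17%). In either direction that is 22.2% of the members against 19.1% of all genes. With no limit on the fold, 5 of the 26 probe sets passed p under 0.01 (19.2%, against 7.52%), and 0 passed an adjusted p under 0.05, the smallest being 0.067. The groups were apart with KO below WT on 6 probe sets (23.1%, against 13.6%) and with KO above WT on 2 (7.69%, against 10.7%). In these bulk samples fewer cells of a type and less RNA per cell cannot be told apart.

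**Figure D1:**
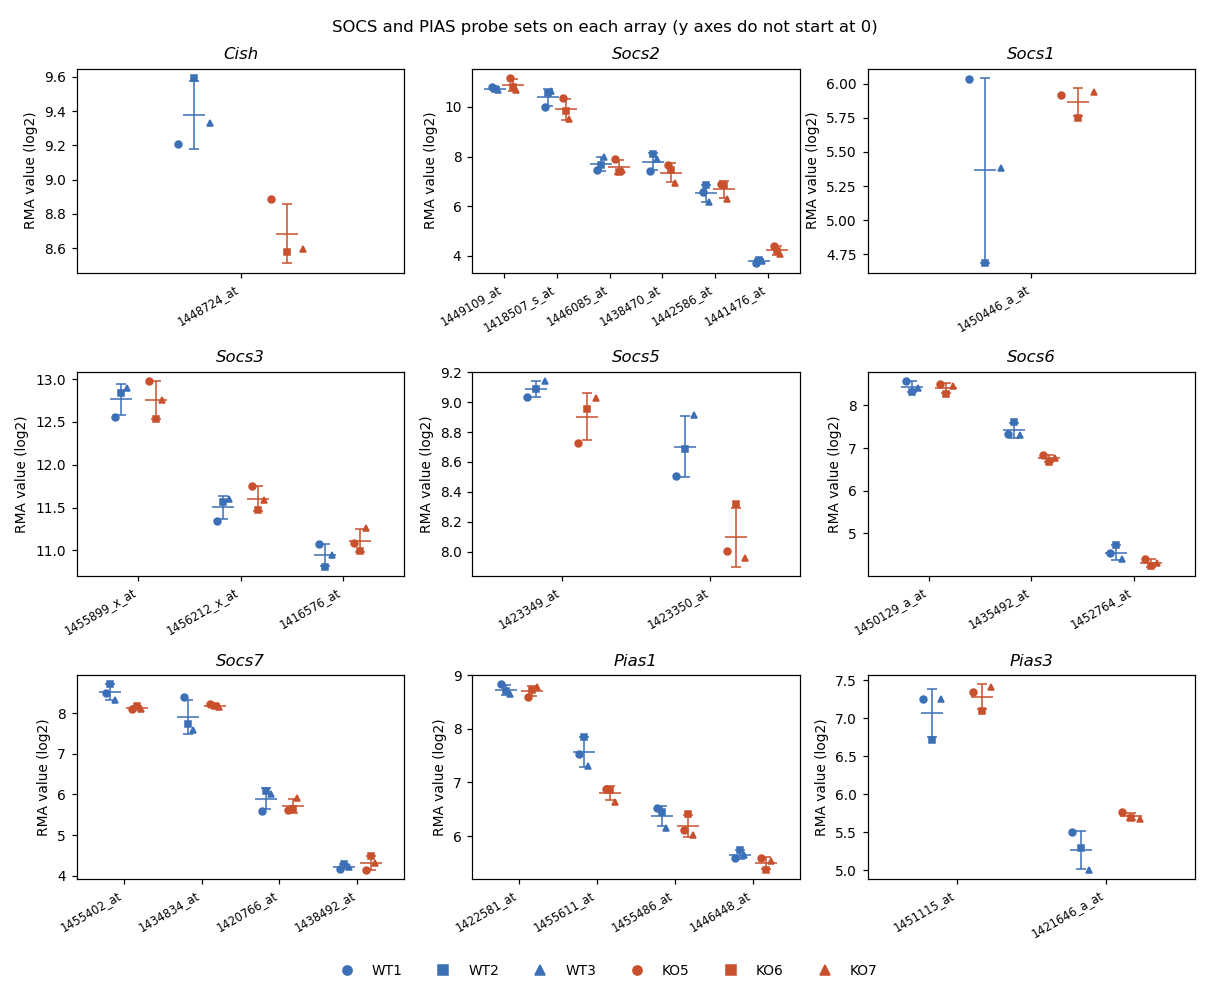
RMA values (log2, y axis) of all 26 probe sets of the 9 genes on each array, 1 panel per gene with its own y axis and probe sets from brightest to dimmest on the x axis. Points are mice, and bars give mean and SD by group (n = 3). For Cish the WT arrays lie at 9.21 or above and the KO arrays at 8.89 or below, whereas the Socs3 groups overlap on all 3 probe sets.

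The inhibitors that answer to prolactin and growth hormone differed among themselves. Cish encodes CIS, the founding member of the family and a classical target of Stat5, and it was lower in KO. Its only probe set (1448724_at) was at 9.21 in WT1, 9.59 in WT2 and 9.33 in WT3, and at 8.89 in KO5, 8.58 in KO6 and 8.59 in KO7. Every KO mouse lay below every WT mouse, with KO5 nearest to the WT range. The difference of -0.69, or 1.62-fold less, had a standard error of 0.15, an adjusted p = 0.0763 by limma and a confidence interval of -1.04 to -0.35. It was between -0.79 and -0.58 with any 1 array left out.

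The promoter of Cish is shown because it was the gene with the smallest p among the members on brightest probe sets and is known as a STAT5 target. The 250 bases before its RefSeq start site (GRCm38.p6, plus strand, chr9:107296409-107296658) are:

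Cish: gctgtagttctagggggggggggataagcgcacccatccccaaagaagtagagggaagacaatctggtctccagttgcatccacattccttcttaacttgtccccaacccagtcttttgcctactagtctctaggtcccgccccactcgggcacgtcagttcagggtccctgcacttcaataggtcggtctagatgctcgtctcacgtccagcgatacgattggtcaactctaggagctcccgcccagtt

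This window was searched on both strands for TTCNNNGAA, the core that STAT dimers bind, and held 0 matches, which says only that these letters are not in this stretch. Of 32851 promoter windows of that length, 7.02% held it.

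Socs2, which restrains growth hormone signaling, has 6 probe sets that differed in direction. The brightest (1449109_at) was at 10.80, 10.71 and 10.69 in WT and 11.17, 10.79 and 10.70 in KO, so that the groups overlapped, and the difference of 0.15 had an interval of -0.19 to 0.49. Another (1418507_s_at) was at 9.999, 10.54 and 10.64 in WT and 10.36, 9.83 and 9.50 in KO, a difference of -0.50 (adjusted p = 0.339). Here KO5 lay inside the WT range and the other KO mice below it. The dimmest (1441476_at) went the other way, with 3.69, 3.83 and 3.81 in WT against 4.41, 4.20 and 4.05 in KO. That is a difference of 0.44 (adjusted p = 0.128), with all KO mice above all WT mice. The others differed by -0.44, -0.12 and 0.15, and their groups overlapped. The data therefore give no single direction for Socs2.

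Socs1 and Socs3 block JAK activity directly, Socs1 after interferon and prolactin and Socs3 after cytokines of the IL-6 family. Socs3 gave small differences. Its brightest probe set (1455899_x_at) was at 12.56, 12.83 and 12.90 in WT and 12.98, 12.54 and 12.76 in KO. The difference was -0.01 with an interval of -0.37 to 0.36. The other probe sets differed by 0.10 (interval -0.20 to 0.40) and 0.17 (interval -0.12 to 0.46), so that each of the 3 intervals stayed well inside 2-fold. Socs1 has 1 probe set (1450446_a_at), at 6.04, 4.68 and 5.38 in WT and 5.92, 5.75 and 5.94 in KO. WT1 lay above all KO mice and the other WT mice below them. The difference of 0.50 had the widest interval of the family, -0.22 to 1.22 (adjusted p = 0.424). Its sign followed the arrays. It was 0.84 without WT1, -0.17 against WT1 alone, and -0.67 with each array's 3' minus 5' value as a covariate, the last with an unadjusted p under 0.05.

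The motifs that STAT and interferon regulatory factors bind were found before the start sites of these genes, and are printed with 10 bases on either side so that a reader can set them beside Cish. The Socs3 stretch (GRCm38.p6, minus strand, chr11:117969502-117969530) has a match to TTCNNNGAA in capitals. The Socs1 stretch (minus strand, chr16:10785594-10785629) has in capitals 2 overlapping matches to GAAA and GAAA with 2 bases between them, a core of interferon response elements that 2.98% of all windows hold:

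Socs3: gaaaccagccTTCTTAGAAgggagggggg

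Socs1: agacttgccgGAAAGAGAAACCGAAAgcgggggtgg

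The windows of Pias1 and the 2 of Pias3 held neither motif, and none of the 6 member windows held TTC and GAA with 4 bases between them, the wider spacing that Stat6 prefers (5.85% of all windows). No window of Socs2, Socs5, Socs6 or Socs7 was available, so these genes were not searched. A match is a description of letters and not of binding.

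Socs5, Socs6 and Socs7 are the longer members of the family and act mainly on growth factor receptors and their adaptors, Socs5 also on the IL-4 receptor. Each had a probe set that was lower in KO. Socs5 (1423350_at) stood at 8.51, 8.68 and 8.91 in WT and 8.01, 8.32 and 7.96 in KO. The groups were apart, by -0.61 (adjusted p = 0.103). The brighter Socs5 probe set differed by -0.19 (interval -0.46 to 0.09), also with every KO mouse below every WT mouse. Socs6 (1435492_at) stood at 7.33, 7.61 and 7.30 in WT and 6.85, 6.68 and 6.75 in KO. This difference of -0.65 had the smallest p of the family (standard error 0.13, adjusted p = 0.067), yet the brightest Socs6 probe set differed by only -0.03 (interval -0.32 to 0.26) with the groups overlapping, and the other by -0.24. For Socs7 the brightest probe set (1455402_at) was at 8.50, 8.71 and 8.33 in WT and 8.10, 8.18 and 8.09 in KO, a difference of -0.39 (adjusted p = 0.159). Another Socs7 probe set (1434834_at) was at 8.39, 7.73 and 7.59 in WT and at 8.22, 8.17 and 8.16 in KO. WT1 lay above the KO mice and the other WT mice below, as for Socs1, and the difference of 0.28 became -0.20 against WT1 alone and 0.52 without WT1. The dimmer Socs7 probe sets differed by -0.17 and 0.10.

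**Figure D2:**
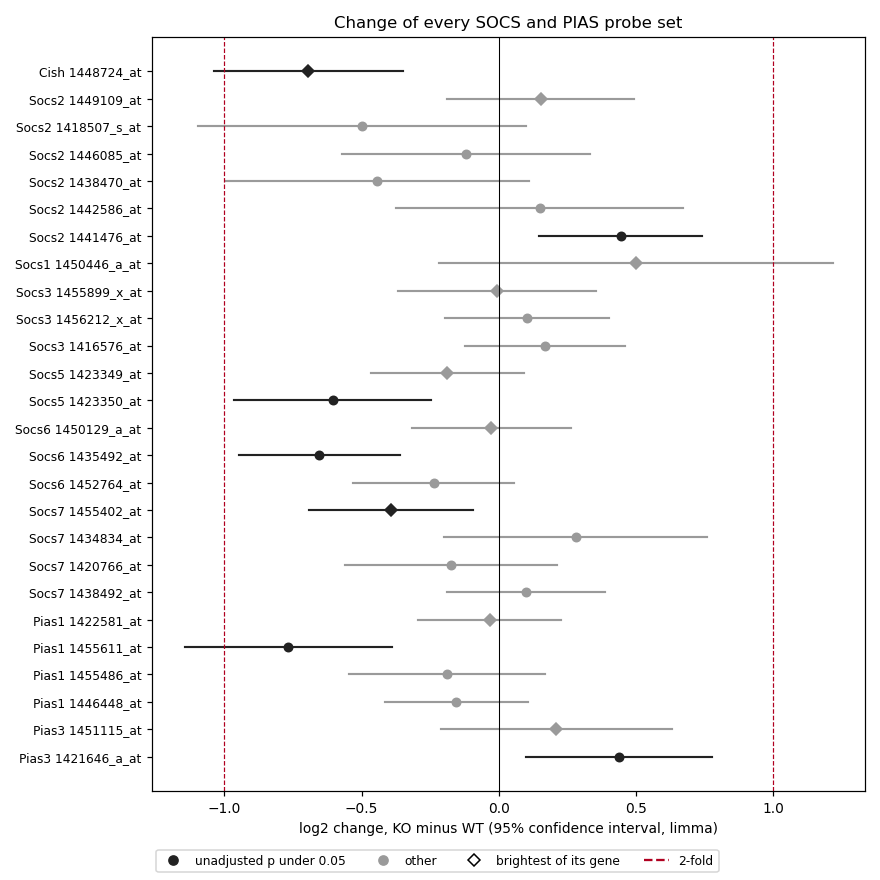
Log2 change, KO minus WT (x axis), with its 95% confidence interval from limma, for each of the 26 probe sets (y axis, by gene and from brightest to dimmest). Black marks an unadjusted p under 0.05, diamonds the brightest probe set of a gene and dashed lines a change of 2-fold. All 26 estimates lie inside the dashed lines, from -0.77 to 0.50.

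Pias1, a SUMO ligase of the nucleus, was lower in KO on 1 of 4 probe sets. On that probe set (1455611_at) the WT mice were at 7.53, 7.85 and 7.30 and the KO mice at 6.88, 6.86 and 6.64. The difference was the largest among the members, at -0.77 (standard error 0.16, adjusted p = 0.0759), or 1.70-fold less, and the groups were apart. The brightest Pias1 probe set (1422581_at) was at 8.84, 8.70 and 8.65 in WT and 8.59, 8.73 and 8.77 in KO, a difference of -0.03 with an interval of -0.29 to 0.23, and the others differed by -0.19 and -0.15. Pias3, the inhibitor of Stat3, was higher in KO on its dimmer probe set (1421646_a_at), at 5.51, 5.29 and 5.01 in WT and 5.76, 5.68 and 5.67 in KO. The difference was 0.44 (adjusted p = 0.165), with WT1 the nearest to the KO mice. Its brighter probe set differed by 0.21 (interval -0.21 to 0.63) with the groups overlapping.

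Probe sets of 1 gene thus gave unequal answers in the same mice. On each array the value of the probe set with the smallest p was taken minus that of the brightest. For Pias1 this was -1.30, -0.85 and -1.35 in WT and -1.71, -1.87 and -2.13 in KO, and for Socs6 it was -1.24, -0.70 and -1.12 in WT and -1.66, -1.58 and -1.70 in KO. Every KO mouse lay below every WT mouse in both genes. The KO mean minus the WT mean was -0.73 in Pias1, -0.63 in Socs6 and -0.42 in Socs5, and 0.29 in Socs2, again with the groups apart, while in Socs3 and Pias3 they overlapped. The probe sets were picked for their p, so these values are a description. Which transcripts or exons each probe set covers was not analysed here.

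**Figure D3:**
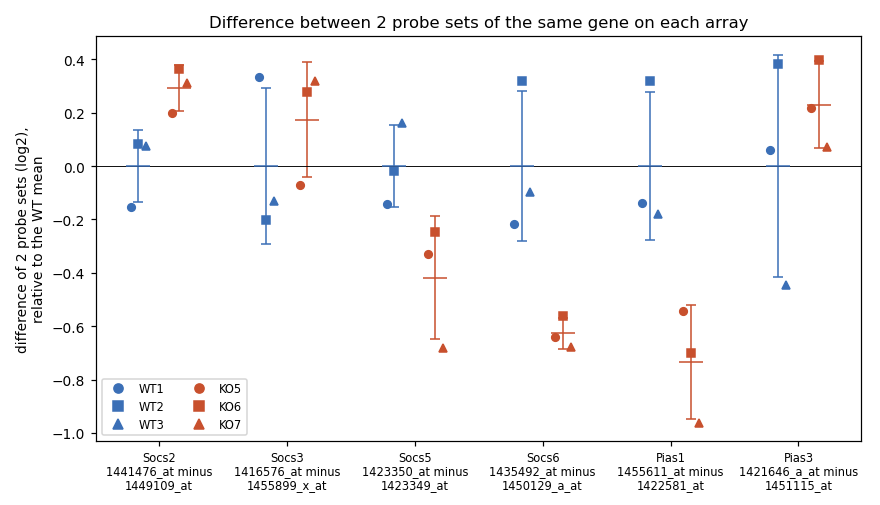
Difference on each array between the probe set with the smallest p and the brightest probe set of the same gene (y axis, log2, shown relative to the WT mean) for the 6 genes in which they are not the same (x axis). Points are mice, and bars give mean and SD by group (n = 3). The KO mean lies 0.73 below that of WT for Pias1 and 0.63 below for Socs6.

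RNA quality moved with the groups, so the differences are given again with it taken in. Against WT1 alone, the WT array with the smallest 3' minus 5' value, Cish was at -0.52, Pias1 at -0.74, Socs6 at -0.57, Socs7 at -0.38 and Socs5 at -0.41, each on the probe set described above with a lower value. The spread of WT cannot be measured from WT1 alone, so these values are effect sizes only. With the 3' minus 5' value as a covariate these genes were at -0.38, -0.58, -0.47, -0.27 and -0.36, and none had a p under 0.05. The dimmest Socs2 probe set was at 0.58 with the covariate (p under 0.05) and 0.53 against WT1 alone. That of Pias3 was at 0.15 with the covariate (p not under 0.05) and 0.20 against WT1 alone. The 7 probe sets at p under 0.05 became 2 with the covariate, the dimmest of Socs2 and that of Socs1, which was then lower. They became 11 without WT1, with 2 further Socs2 probe sets lower and Socs1 and a Socs7 probe set higher. With 3 mice per group a fit with the covariate has few degrees of freedom and the covariate itself separates the groups.

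**Figure D4:**
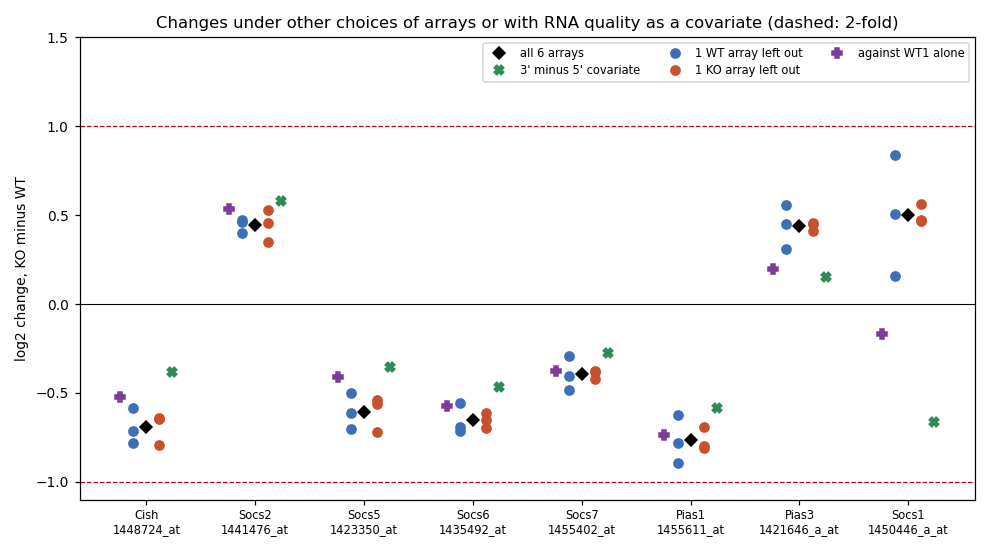
Log2 change, KO minus WT (y axis), of the 7 probe sets with p under 0.05 and of Socs1 (x axis) with all 6 arrays, with 1 array left out, against WT1 alone, and with the 3' minus 5' value of each array as covariate. Dashed lines mark 2-fold. The 5 lower probe sets stay below 0 in each of these settings, from -0.90 to -0.27, and Socs1 goes from 0.84 to -0.67.

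The genes that act before and after these inhibitors were read from 9 lists on the brightest probe set of each gene. Over all genes 0.978% were called on that probe set, 13% were lower and 6.17% higher at an unadjusted p under 0.05, and the median change was -0.06. Of 10 measured JAK kinases and STAT factors 0 were called on that probe set, though Jak1 was on another, 4 were higher and 0 lower at p under 0.05, and the median was 0.24. Stat2, a factor of interferon signaling, had the smallest p, with 5.20, 5.32 and 5.26 in WT and 5.75, 5.89 and 5.79 in KO (0.55, adjusted p = 0.0665). Stat3, picked after its value was seen, was at 11.77, 10.39 and 10.25 in WT and 11.99, 12.07 and 12.20 in KO, a difference of 1.28 (adjusted p = 0.134) that was not called, its unadjusted p being just over the limit. WT1 again lay nearest to KO.

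Of 19 measured cytokine ligands 1 was called, Lif, a cytokine of the IL-6 family that induces Socs3. It fell from 11.38, 11.67 and 11.46 in WT to 10.32, 10.97 and 10.17 in KO, by 1.01 on the log2 scale (adjusted p = 0.076). With Lif included, 4 ligands were lower at p under 0.05 and 0 higher, and the list had a median of -0.22. Of 25 receptors 0 were called on the brightest probe set, though Il6st and Il4ra were higher and called on others, and 2 were lower at p under 0.05, with a median of -0.05, and Il13ra1, a chain of the IL-13 receptor, had the smallest p at -0.35 (adjusted p = 0.175).

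Among genes switched on by STAT factors, calls went in both directions. Of 10 known STAT5 targets 0 were called on the brightest probe set, though Akt1 was higher and called on another, and 1 was higher and 1 lower at p under 0.05. These were the milk protein genes Wap, with the smallest p at 0.29 (adjusted p = 0.184), and Csn2, the gene of β-casein, picked after its value was seen, at 10.66, 8.26 and 10.68 in WT and 9.33, 6.30 and 7.35 in KO. The Csn2 groups overlapped and the difference of -2.21 had an interval of -4.28 to -0.13, while 3 STAT5 targets in all were lower and 7 higher whatever their p. Of 20 STAT3 targets 1 was called, Cp, the gene of ceruloplasmin, which fell by 1.07 (adjusted p = 0.0602), while Ctsb, the gene of cathepsin B, was higher and called on 2 other probe sets, and 3 were higher at p under 0.05. Of 17 interferon targets 0 were called, but 4 were lower and 0 higher at p under 0.05, with a median of -0.18. Ifit1, a classical interferon-induced gene, was at 8.77, 9.16 and 8.91 in WT and 8.02, 8.09 and 8.05 in KO (-0.89, adjusted p = 0.05).

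Genes of the proteins through which the inhibitors work had 0 calls on their brightest probe sets. Of 6 measured partners of the SOCS box 0 were called and 1, Cul2, a cullin scaffold, was lower at p under 0.05 (-0.27, adjusted p = 0.225). Of 10 genes of the SUMO machinery 0 were called, with 1 lower and 1 higher at that limit. The lower was Rnf4, a ubiquitin ligase that recognises SUMO chains, at 9.95, 10.17 and 10.07 in WT and 9.50, 9.48 and 9.50 in KO, a difference of -0.57 (adjusted p = 0.0655) with the groups apart. Of 14 other inhibitors of the pathway 0 were called on the brightest probe set, though Cbl was higher and called on another, 2 were lower and 1 higher at p under 0.05, with a median of -0.07, and Usp18, which restrains the interferon receptor, had the smallest p at -0.40 (adjusted p = 0.169).

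The remaining probe sets of the listed genes gave more calls than the brightest. Of 154 such probe sets 8, of 7 genes, were called higher in KO and 1, of Cp, lower, or 5.84% in all. Over the whole array too, calls were rarer on the brightest probe set of each gene (0.978%) than on all probe sets (1.99%). The share over all probe sets other than the brightest was not counted. Jak1, the kinase shared by many cytokine receptors, was at 7.87, 6.98 and 6.16 in WT and 8.72, 8.50 and 8.62 in KO, a difference of 1.61 (adjusted p = 0.091). Il6st, the signaling chain gp130 of the IL-6 family, was at 7.51, 5.35 and 5.66 in WT and 8.52, 8.35 and 7.83 in KO, a difference of 2.06 (adjusted p = 0.104). Both genes had all KO mice above all WT mice. The others were Akt1 (2.18), a kinase of survival signaling, Ranbp2 (1.89), a SUMO ligase of the nuclear pore, Ctsb (1.39 and 1.54), Cbl (1.404), a ubiquitin ligase of receptors, and Il4ra (1.28), the IL-4 receptor chain. WT1 was the WT array nearest to KO on all 8, and 0 of the 8 were called with the 3' minus 5' value as a covariate. Against WT1 alone the differences were between 0.53 and 1.29, and with the covariate between 0.03 and 1.21.

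**Figure D5:**
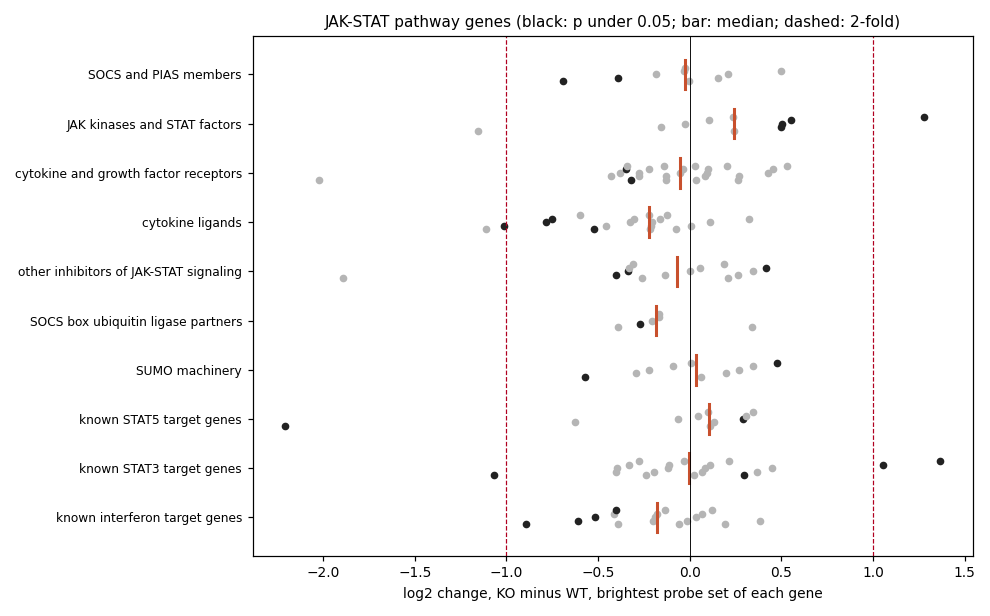
Log2 change, KO minus WT, on the brightest probe set of each gene (x axis) for the 9 inhibitor genes and for 9 lists of the JAK-STAT pathway (y axis). Each point is a gene, black at an unadjusted p under 0.05, the bars are medians and the dashed lines 2-fold. The median is 0.24 for JAK kinases and STAT factors, -0.22 for cytokine ligands and -0.03 for the inhibitor genes.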

How the data were processed

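The authors deposited log2 values of 6 Affymetrix arrays, 1 per mouse, made with RMA, per the labels, a method that subtracts background, brings all arrays to 1 distribution and condenses probes into probe set values. Its version is not given in the sources used here. Quality control and normalization had used simpleaffy. The values were used as deposited, without 64 control probe sets. KO was compared with WT by limma 3.58.1 (R 4.3.3; lmFit, eBayes, no covariate) on all 45037 probe sets, with Benjamini-Hochberg adjustment over all of them, after a test on simulated data. Symbols came from the platform annotation, and all 26 member probe sets kept theirs in RefSeq (GRCm38.p6), whose promoter table gave the sequences. Members and lists were chosen with earlier results of these data known. Named genes were all members, Wwox, of each list the called genes (at most 3) or the smallest p, and the 3 genes most correlated with the member of smallest p on its brightest probe set. Alternatives were other normalizations, priors, weights, filters and limits, a covariate for RNA quality, the replicate number as a block, and single arrays left out. The comparison against WT1 alone was chosen after seeing the data. The number of arrays limits the precision. Figures were drawn in matplotlib 3.10.9.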

Additional observations from a re-analysis of the deposited data

How the results depend on the processing

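No probe set of the 9 genes met the limits of a call under any renormalization, prior, weighting or filter. The same held without any 1 array and with the limit on p raised to 0.05. The prior, the filter and the raised limit on p left each log2 change as it was, inside 2-fold, so no call was possible there. With no fold limit 5 met the limit on p, of 3386 among all probe sets, against 894 with the fold limit. An adjusted p under 0.05 with no fold limit gave 100 over all probe sets. Unmoderated variances gave 299 calls over all probe sets, and the covariate for RNA quality 316, with 2 member probe sets at an unadjusted p under 0.05 in place of 7. With 1 array left out the calls over all probe sets ran from 566 (without WT2) to 1634 (without WT1), and the member probe sets at p under 0.05 from 6 (without WT2) to 11 (without WT1). With the replicate number as a block there were 922 calls and 7 member probe sets at p under 0.05. The labels call the numbers biological replicates and do not say that they pair the mice. The correlations of same-numbered deviations were -0.16, 0.16 and 0.10. With 3 arrays per group the deviations from a group mean are tied to each other, so these correlations cannot settle it. The cause of these shifts was not tested.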

Other observations

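The nearest relatives of the 9 genes gave a similar mixture. Socs4, of which 4 probe sets were measured, was at 6.52, 6.58 and 6.06 in WT and 6.00, 5.65 and 5.73 in KO on 1 of them (1421275_s_at), a difference of -0.60 (adjusted p = 0.131 by limma) with the groups apart. Its brightest probe set (1455142_at) differed by -0.26, also with every KO mouse below every WT mouse. The others differed by 0.01 (1421273_at) and -0.27 (1421274_at), with the groups overlapping. Pias2 was lower on all 3 of its probe sets, by between -0.49 and -0.30, and the one with the smallest p (1428725_at) was at 6.67, 7.05 and 7.07 in WT and 6.52, 6.25 and 6.56 in KO (adjusted p = 0.151). Pias4 differed by 0.27, 0.48 and -0.14, with the groups overlapping on each. None of these probe sets was called.

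The genes whose brightest probe set followed that of Cish most closely over the 6 arrays were Rab5a, a GTPase of early endosomes (Pearson r = 0.997), Ndnf, a secreted factor (r = 0.997), and St7 (r = 0.993), out of 18192 genes compared, of which 719 had an r of at least 0.9. Ndnf differed by -0.83 (adjusted p = 0.0697 by limma), St7 by -0.33 and Rab5a by -0.20. The arrays share the difference between the groups, so these values describe likeness over 6 mice and no more.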
